A study of Mus musculus with 36 samples.

Results

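Replication-dependent histone genes supply the bulk of the histone proteins that package newly copied DNA. Here they were taken as the rows of the count table whose gene name has the older form Hist1h to Hist4h, without Hist1h4m. This rule found 7 of 16614 rows: the H2A genes Hist1h2an, Hist1h2ao and Hist1h2ap, the H2B genes Hist1h2bp, Hist1h2bq and Hist1h2br, and the H4 gene Hist1h4n. Another 57 histone genes stand in the table under newer symbols, were matched by gene identifier to their older Hist names, and serve only for comparison. All 7 genes lie in the histone cluster of mouse chromosome 13, between positions 21786826 and 21837530 of GRCm38.

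Ribosome-protected fragments (RPFs, the pieces of mRNA that a ribosome shields from nuclease) were sequenced from 5-day-old mouse brain, from the pellet of a sucrose gradient, which is enriched in RNA granules with stalled ribosomes, and from fraction 5/6 of the same gradients, which holds polysomes. RNA-seq of whole-brain homogenate was made beside them. The mice were C57BL/6 wild type (WT) or FMR1 KO, which lack the RNA-binding protein FMRP, and each preparation pooled 10 brains. Every combination was made with standard nuclease treatment at 10 mM MgCl2 and again with low nuclease treatment at 2.5 mM MgCl2, giving 12 groups of 3 libraries and 36 libraries in all. The 3 RPF libraries of a group carried different linkers and were handled as a pool after ligation, so a group and its pool cannot be told apart.

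Replication-dependent histone mRNAs are made mainly in S phase. They are the main class of animal mRNAs without a poly(A) tail. Their 3′ end is a conserved stem-loop that is bound by the protein SLBP, which serves processing, translation and decay of the message. The genes are short, lack introns in most cases and occur as many near-identical copies in clusters, so that a short read from one copy often matches others. In newborn mouse brain, dividing cells such as the granule neuron precursors of the cerebellum are a known place of histone synthesis.

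The stem-loop is shown first because it is the hallmark of the class. The motif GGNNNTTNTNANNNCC was searched on the gene's own strand in the 200 bases after the stop codon. It was present in 6 of the 7 genes, in 56 of the 57 other histone genes and in 0.928% of all 16488 genes with an annotated stop codon. The sequences, from RefSeq's GRCm38, run 5′ to 3′ with the 16 bases of the motif in capitals and 5 bases on each side.
Hist1h2bp: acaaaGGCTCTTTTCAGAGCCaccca
Hist1h2bq and Hist1h2br: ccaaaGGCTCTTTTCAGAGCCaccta
Hist1h2ao and Hist1h2ap: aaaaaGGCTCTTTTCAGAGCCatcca
Hist1h4n: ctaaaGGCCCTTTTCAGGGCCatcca
The motif began 28 bases after the stop codon in Hist1h2bp (chr13:21787923-21787938, plus strand), 30 bases in Hist1h2bq (chr13:21809746-21809761, minus) and Hist1h2br (chr13:21834181-21834196, plus), 39 bases in Hist1h2ao (chr13:21810898-21810913, plus) and Hist1h2ap (chr13:21833029-21833044, minus) and 34 bases in Hist1h4n (chr13:21831798-21831813, minus). These letters were not found in the 200-base window of Hist1h2an. The H2A and H2B genes shared the same 16 bases and the H4 gene differed from them within the stem.

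The 7 genes are arranged as mirrored copies, which sets what a short read can tell. The segment chr13:21801985-21812409, with Hist1h2bq, Hist1h2ao and Hist1h4m, is repeated in inverted form at chr13:21831532-21841957, with Hist1h2br, Hist1h2ap and Hist1h4n. Over 10426 aligned bases, 10424 were identical (99.98%). The coding sequences were identical within the pairs Hist1h2bq and Hist1h2br, Hist1h2ao and Hist1h2ap, and Hist1h4m and Hist1h4n. Only one base differed within an exon. It lies in the 5′ UTR of the H4 pair, 3 bases before the start codon, and it is shown in capitals because it is the only exon base that differs within the pair.
Hist1h4m: acagttttgtcttcGtcatgtctggtcgt
Hist1h4n: acagttttgtcttcAtcatgtctggtcgt
The difference is G15A, counted from the 5′ end of the printed stretch, with the Hist1h4m base first. It lies at chr13:21811781 in Hist1h4m and chr13:21832161 in Hist1h4n. The remaining members have no such twin: Hist1h2an (chr13:21786826-21787218, minus) differed from Hist1h2ao and Hist1h2ap at 5 of 390 coding bases (98.7% identity), and Hist1h2bp (chr13:21787461-21789213, plus) differed from Hist1h2bq and Hist1h2br at 6 of 378 (98.4%).

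A window of 30 bases, about the length of an RPF, was then slid along each coding sequence and looked up on both strands of all 22 chromosomes of the reference. In Hist1h2an 10.8% of the coding windows and in Hist1h2bp 15.2% occurred once. In Hist1h2ao, Hist1h2ap, Hist1h2bq, Hist1h2br and Hist1h4n none did. With untranslated exon bases included, the share was 46.9% for Hist1h2bp and 5.24% for Hist1h4n, the latter being 21 windows that all span the differing base. It stayed at 0 for Hist1h2ao, Hist1h2ap, Hist1h2bq and Hist1h2br. How the authors treated reads that match several places is not given in the sources used here, so every value below is the deposited count for a gene and may hold only part of the reads that its mRNA gave.

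Total counts per library were 21710393 to 40174168 (WT) and 23127381 to 36305630 (KO) in the standard pellet, 21594932 to 33212827 and 6765065 to 27263089 in fraction 5/6, 112249206 to 147216378 in standard RNA-seq, and 23634940 to 141505786 in the low nuclease libraries. Since 36.7 to 63.4% of standard RPF counts fell on Cdk8, levels are given as CPM (counts scaled to a fixed library total) with that gene taken out. Fmr1 stood at 60.6 to 71.9 CPM in WT and 16.4 to 18.1 CPM in KO standard RNA-seq. The library labelled WT fraction 5/6 replicate 3 of the standard preparation had 3.17 CPM of Fmr1, below the 5.98 to 10.7 CPM of the KO fraction 5/6 libraries, against 68.6 and 100.1 CPM in its fellow WT libraries. Markers of neurons summed to 7561 to 8671 CPM in standard RNA-seq.

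In whole-brain RNA of the standard preparation all 7 genes were detected in all 6 libraries, at widely different levels per length. Hist1h4n led in WT with 89.5 ± 25.3 RPKM (CPM divided by kilobases of exon; SD, n = 3), followed by Hist1h2an at 29.7 ± 10.8, Hist1h2ap at 10.2 ± 2.91, Hist1h2bp at 5.43 ± 2.40, Hist1h2ao at 1.39 ± 0.636, Hist1h2br at 0.243 ± 0.0642 and Hist1h2bq at 0.206 ± 0.0244. The libraries of Hist1h2ap and Hist1h2bp overlapped, as did those of Hist1h2br and Hist1h2bq, while the other neighbours in this order did not overlap. Within the identical pair Hist1h2ap and Hist1h2ao the levels were unequal in every library, and how reads that fit both copies were counted is not given in the sources used here. Ranked among all 65 histone genes of the table, Hist1h4n stood 28th and Hist1h2an 42nd in WT. The 7 genes together gave 60.6 ± 18.6 CPM in WT and 47.9 ± 17.8 CPM in KO (SD, n = 3), which was 1.26 to 1.47% and 0.956 to 1.24% of all histone counts. With Hist1h4m, the identical partner of Hist1h4n, added to the sum the order of the means turned, at 61.4 ± 18.9 CPM in WT and 71.4 ± 25.9 CPM in KO, with overlapping libraries.

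The counts behind these levels were as follows. Hist1h4n, a nucleosome core H4 gene, had 3695, 4359 and 6263 counts in the WT and 2446, 3332 and 1849 in the KO RNA-seq libraries. Hist1h2an had 964, 1370 and 2031 in WT and 1518, 2732 and 1725 in KO. The WT counts of Hist1h4n were all above the KO counts, whereas the groups overlapped for Hist1h2an. Hist1h2ap had 425, 625 and 798 counts in WT and 666, 1320 and 708 in KO, and Hist1h2bp had 284, 445 and 706 in WT and 471, 643 and 609 in KO. Hist1h2ao (54 to 151 counts), Hist1h2br (49 to 106) and Hist1h2bq (44 to 80) were the lowest throughout. Among WT libraries replicate 3 was the highest for each of the 7 genes. The summed CPM of 16 S-phase genes was also highest there (751 against 427 and 463), as was that of markers of cerebellar granule neuron precursors (223 against 32.5 and 81.6). In whole tissue, fewer dividing cells and less histone mRNA per cell cannot be told apart, and the part of dissection or cell makeup in this spread was not tested.

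Pellet RPFs of the standard preparation held few or no counts for these genes. Hist1h2ao, Hist1h2ap, Hist1h2bq and Hist1h2br had 0 counts in all 6 pellet libraries. Hist1h4n had 0, 1 and 0 counts in WT and 0, 1 and 0 in KO. Hist1h2bp had 10, 14 and 0 in WT (0.470, 1.14 and 0 CPM) and 7, 3 and 5 in KO (0.454, 0.239 and 0.400 CPM). Only Hist1h2an was counted in every library, with 18, 28 and 9 in WT (0.846, 2.29 and 0.755 CPM) and 21, 19 and 19 in KO (1.36, 1.52 and 1.52 CPM). The genes with counts in most libraries were the ones whose coding sequence holds 30-base windows of its own. Together the 7 genes gave 1.86 ± 1.46 CPM in the WT pellet and 1.86 ± 0.0568 CPM in the KO pellet (SD, n = 3), or 0.179 to 0.339% of the histone counts there.

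**Figure D1:**
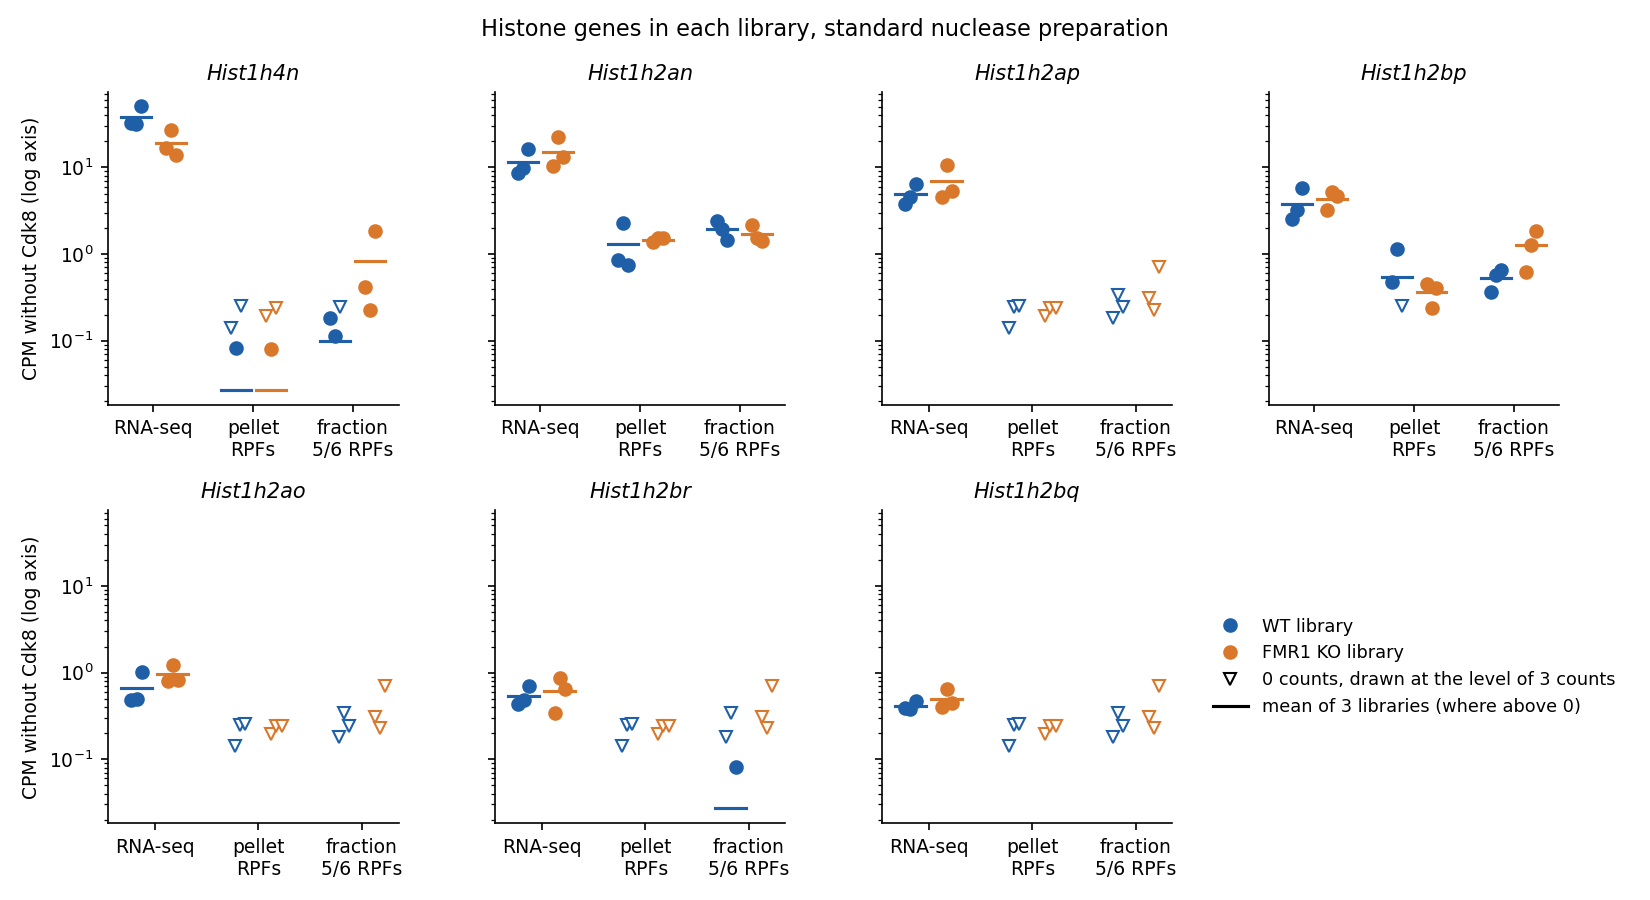
Level of each gene in every library of the standard nuclease preparation, in CPM without Cdk8 on a log axis, with 1 point per library by genotype, lines at the group means, and libraries without counts as open triangles at the level of 3 counts. Whole-brain RNA holds all 7 genes, whereas Hist1h2ao, Hist1h2ap, Hist1h2bq and Hist1h2br have no pellet counts in any library and Hist1h2an is counted in every one.

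Occupancy, the level of RPFs relative to RNA-seq, was tested with edgeR's quasi-likelihood test over all genes, with Benjamini-Hochberg adjustment and a threshold of 0.05. Within RPF libraries only Hist1h2an passed the filter on low counts. The other 6 genes passed through their RNA counts alone, and 4 of them had no pellet count at all, so that at these RPF counts only genes higher in RNA could enter. Their fitted differences and the number of calls are therefore given as a description, with no test read from them. The number was 6 of 7 lower in the WT pellet (34.2% of all genes tested were called lower) and 7 of 7 in the KO pellet (35.2%). Hist1h2an was lower by a log2 difference of -2.07 ± 0.42 (SE; adjusted p = 0.00328, edgeR) in WT and -2.28 ± 0.38 (adjusted p = 0.00165) in KO, with 3 of 3 pellet libraries below all RNA libraries in each genotype. The fitted difference of Hist1h2bp was -2.48 ± 0.34 in KO and -1.71 ± 0.70 in WT, where its pellet libraries were spread from 0 to 1.14 CPM.

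For the genes at 0 counts a bound replaces the fold, taken at a floor of 3 counts over the 3 pellet libraries together. In WT, Hist1h2ap was at least 75.0-fold lower in the pellet than in RNA, Hist1h2ao at least 10.1-fold, Hist1h2br at least 8.15-fold and Hist1h2bq at least 6.29-fold. In KO the bounds were 90.7-fold, 12.7-fold, 8.11-fold and 6.66-fold. The single pellet count of Hist1h4n came to 0.0574% of its RNA level in WT (95% exact binomial interval 0.00145 to 0.320%) and 0.130% in KO (0.00329 to 0.724%). Its twin Hist1h4m had 0, 3 and 0 pellet counts in WT and 11, 6 and 19 in KO. As a sum, the pair stood at 0.224% of its RNA level in WT (0.0611 to 0.575%) and at 2.17% in KO (1.53 to 2.99%). The bounds are larger for Hist1h2ap than for its twin Hist1h2ao because its RNA counts are higher. PCR copies of a molecule are not independent, so intervals and floors cover counting error only.

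On one scale for all 7 genes, the median ratio of pooled pellet to pooled RNA CPM, with counts under 3 raised to the floor, was -3.27 (log2) in WT and -3.54 in KO. These medians are upper limits, since 5 of the 7 members stood under the floor in each genotype. For the 57 other histone genes, 4 of them under the floor, the median was -3.13 and -3.16, and for all genes tested -1.27 and -1.16. Among the other histone genes, 44 of the 57 were lower in the WT pellet than in RNA and 0 higher, with a median log2 difference of -2.01 in the fit against -0.10 over all genes. In KO, 49 of 57 were lower and 0 higher. By class, 9 of 14 H2A, 13 of 14 H2B, 11 of 12 H3 and 11 of 11 H4 genes were lower in WT, and 0 of 6 H1 genes were, with H1 values between -0.45 and 0.52. In KO 0 of 6 H1 genes were called as well, with values between -0.57 and 0.24. By library size without Cdk8 alone, 3 of 6 H1 genes were called lower in WT and 5 of 6 in KO, at -1.57 to -0.60 and -1.63 to -0.85, and all genes of the core classes were. Most of all genes tested were called lower in WT under this scaling, as given below, and the share in KO is not given here. No test of the difference between these classes was made, and all 6 H1 genes are also among the genes with over 50% of their coding windows found once in the genome.

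Fraction 5/6 held few counts of these genes as well. Hist1h2ao, Hist1h2ap and Hist1h2bq again had 0 counts in all 6 libraries, and Hist1h2br had 1 count in WT replicate 3. Hist1h4n had 3, 1 and 0 counts in WT and 4, 3 and 8 in KO, Hist1h2bp 6, 5 and 8 in WT and 6, 17 and 8 in KO, and Hist1h2an 40, 17 and 18 in WT and 21, 20 and 6 in KO. Here too 6 of the 7 genes passed the filter through RNA alone, Hist1h2an being the exception, and the number of calls is a description: 7 of 7 lower in WT (27.6% of all genes tested were called lower) and 7 of 7 in KO (33.1%). Hist1h2an was lower by -1.32 ± 0.34 in WT (adjusted p = 0.0153, edgeR) and -2.16 ± 0.43 in KO (adjusted p = 0.00313). The fitted difference of Hist1h2bp was -1.65 ± 0.48 in WT and -0.95 ± 0.35 in KO.

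The bounds for fraction 5/6 describe deposited counts too, with the same limit as in the pellet. They were at least 62.2-fold in WT and 60.9-fold in KO for Hist1h2ap, 8.35-fold and 8.55-fold for Hist1h2ao, and 5.22-fold and 4.48-fold for Hist1h2bq. Hist1h2br was at least 5.45-fold lower in KO. Its 1 count in WT was 4.92% of its RNA level (95% exact binomial interval 0.124 to 27.7%). That count came from the library labelled WT fraction 5/6 replicate 3, whose Fmr1 level stood apart, and without this library Hist1h2br had 0 counts in WT fraction 5/6. Hist1h4n stood at 0.276% of its RNA level in WT (0.0753 to 0.708%) and at 2.90% in KO (1.62 to 4.79%), where the fitted difference was -4.08 ± 0.54. Summed with Hist1h4m it stood at 1.22% in WT (0.721 to 1.92%) and 8.47% in KO (6.86 to 10.3%). Of the 18 WT counts of the pair 14 came from the library labelled WT fraction 5/6 replicate 3, and without it the pair stood at 0.401% in WT (0.109 to 1.03%). Without the same library Hist1h2an was still called lower in WT, at -1.16 (adjusted p = 0.0272, edgeR), and Hist1h2bp read -1.88. Without WT RNA replicate 1, 2 or 3, when 4 genes passed the filter, the number of calls was 4, 4 or 3, Hist1h2bp not being called without replicate 3. In KO it was 4 without fraction 5/6 replicate 2 or RNA replicate 2 or 3, and 5 without any other 1 library. With 1 library left out, the value of Hist1h2bp in KO lay between -1.16 and -0.72, and it was not called in 5 of 6 such fits, the exception being without RNA replicate 1.

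The size of these differences depended on how libraries were scaled, while the direction stayed the same for Hist1h2an under TMM, library size and DESeq2. Hist1h2bp stayed lower as well, but it passed the filter through RNA alone and could enter only when higher in RNA. Scaled by TMM the median gene was at -0.10 in the WT pellet against RNA, and by library size without Cdk8 alone at -1.25. Hist1h2an then read -3.21 (adjusted p = 2.55e-04, edgeR) and Hist1h2bp -2.84. Across all 16173 genes tested the split of higher and lower calls moved from 5027 and 5537 to 1421 and 10933.

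Enrichment, the level in the pellet relative to fraction 5/6, could be tested for Hist1h2an alone, since the other 6 genes did not pass the filter on low counts. Its log2 difference was -0.63 ± 0.46 in WT (adjusted p = 0.650, edgeR; 0.0229% of all genes were called) and 0.05 ± 0.38 in KO (adjusted p = 0.947; 11.5%). Neither was called by edgeR or reached an unadjusted p under 0.05, so the count was 0 of 1 in each genotype. DESeq2 did not call it in WT and gave no adjusted p in KO. With the replicate 3 libraries of both fractions left out, the WT value was -0.65 ± 0.52 (adjusted p = 0.501, edgeR). At 6 to 40 counts per library, a difference smaller than the spread between libraries was not detectable at this depth.

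The share of its own sequence that a gene holds was then set beside its pellet counts over all 65 histone genes, Hist1h4m included. Of the 13 genes without a single 30-base coding window of their own, 5 of them members, 9 had under 3 pellet counts over the 3 WT libraries and 9 over the 3 KO libraries. Of the 52 genes with at least 1 such window none did. The median log2 ratio of pooled pellet to RNA CPM was -4.02 in WT for these 13 genes and -1.61 for the 12 genes in which over 50% of the windows were their own. In KO it was -4.49 and -1.65. The medians of the 13 genes are upper limits, since the 9 under 3 counts were raised to the floor. Of the 12 genes 6 are linker histone H1 genes, with a median of -1.01 in WT and -1.16 in KO, and the 6 core histone genes among them had medians of -2.0 and -1.98, so class and share of own sequence overlap. The 33 genes with 10 to 50%, among them Hist1h2an and Hist1h2bp, lay between at -3.34 and -3.49, and the 7 genes above 0 and up to 10% at -2.75 and -2.77, so the medians did not rise in every step. Across the 65 genes Spearman's rho was 0.50 in WT and 0.53 in KO. These are descriptions across genes that share libraries and sequence, and the genotypes are not independent of each other in this respect. All 5 members without a coding window of their own had under 3 pellet counts in both genotypes, the other 2 members had more, and the part of read assignment in their low RPF counts was not tested.

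**Figure D2:**
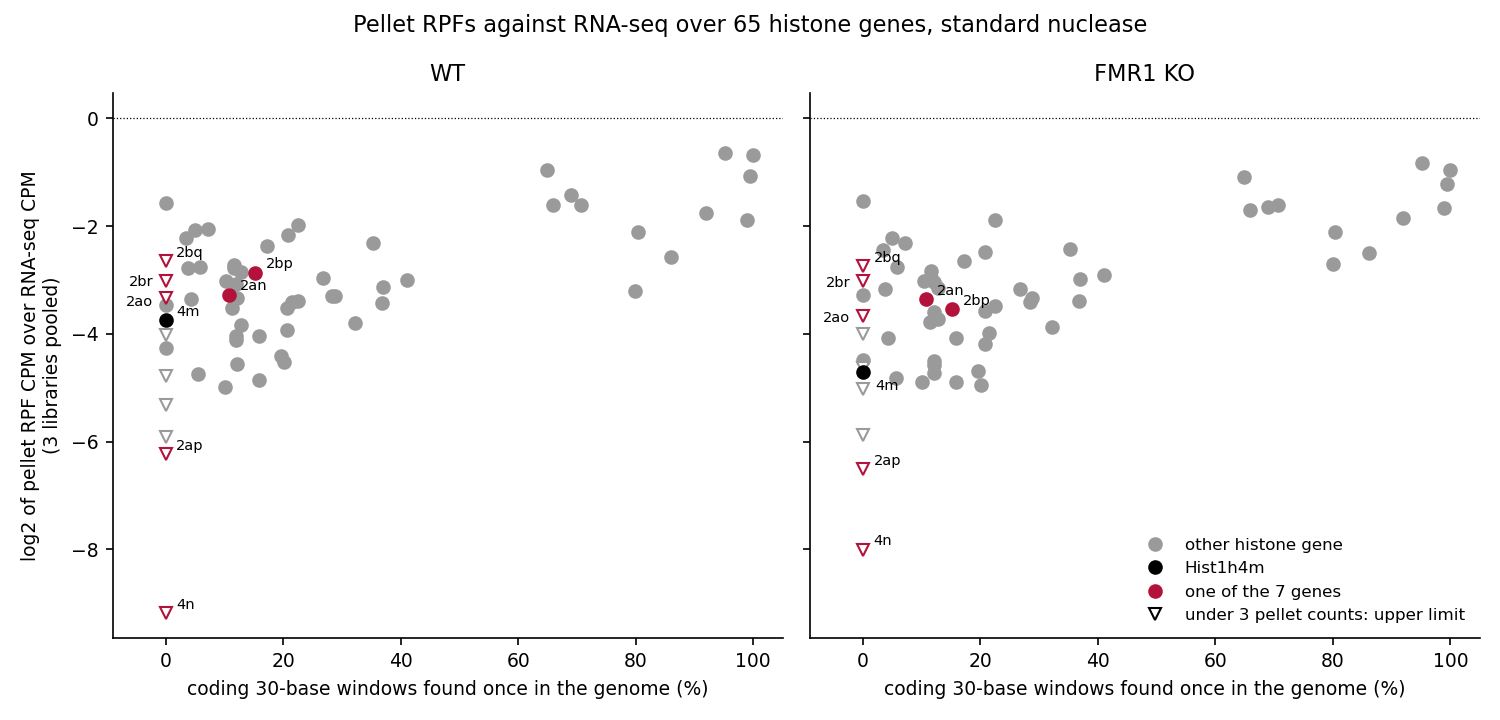
Log2 ratio of pooled pellet RPFs to pooled RNA-seq (CPM without Cdk8, standard nuclease, counts under 3 raised to 3) for 65 histone genes against the percent of 30-base coding windows found once in the genome, by genotype. Genes under 3 pellet counts all lie at 0% on the horizontal axis, where 5 of the members are, and the members with windows of their own are Hist1h2an at 10.8% and Hist1h2bp at 15.2%.

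Peak calls of RPF coverage show where on a transcript the fragments lay. The authors called peaks per library on transcripts, and the 12 standard RPF libraries held 11389 to 36435 peaks each. Among the members only Hist1h2an had any, with 1 peak in each of 6 libraries and 0 in the other 6. In the pellet they covered transcript positions 322 to 375 in WT replicate 2 (height 20), 342 to 379 in KO replicate 1 (height 15) and 335 to 371 in KO replicate 2 (height 15). In fraction 5/6 they covered positions 356 to 379 in WT replicate 1 (height 19), 353 to 376 in WT replicate 2 (height 15) and 342 to 366 in KO replicate 2 (height 9). The coding sequence spans positions 1 to 390 of a transcript of 393 bases, so all 6 peaks were near its 3′ end. The only 30-base windows of Hist1h2an that occur once span coding positions 316 to 383 (chr13:21786836-21786903), and all 6 peaks lie inside that stretch.

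FMR1 KO and WT were compared in each readout. In pellet RPFs Hist1h2an, the only gene that could be tested, differed by 0.28 ± 0.44 (KO minus WT, log2; adjusted p = 0.988, edgeR), in a comparison where 0.0152% of all genes were called. In fraction 5/6 RPFs it differed by -0.39 ± 0.41 (adjusted p = 0.860, edgeR), where 0.00% were called, and without the library labelled WT fraction 5/6 replicate 3 by -0.62 ± 0.41 (adjusted p = 0.847, edgeR). Without that library Hist1h2bp passed the filter too and had the opposite sign, at 1.08 ± 0.55 (adjusted p = 0.842, edgeR). With all libraries neither difference of Hist1h2an reached an unadjusted p under 0.05, and DESeq2 called neither. For the change of pellet RPFs against RNA-seq between genotypes, the 4 genes without a pellet count could not show a difference, and Hist1h4n had 1 pellet count per genotype. Hist1h2an and Hist1h2bp were not called by edgeR (0.0670% of all genes were) and neither reached an unadjusted p under 0.05. DESeq2 did not call Hist1h2an and gave no adjusted p for Hist1h2bp. Hist1h2an was at -0.17 ± 0.62 and Hist1h2bp at -0.74 ± 0.92, and with replicate 3 of every group left out at -0.70 ± 0.75 and -1.53 ± 0.73 (adjusted p = 0.783 and 0.575, edgeR).

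In RNA-seq 0 of 7 genes were called by edgeR or DESeq2 between the genotypes (0.0736% of all genes were called by edgeR), and 1 reached an unadjusted p under 0.05. This was Hist1h4n, lower in KO by -0.95 ± 0.27 (unadjusted p = 0.00633, adjusted p = 0.999, edgeR; adjusted p = 0.0708, DESeq2), with 14.1 to 27.2 CPM in the 3 KO libraries and 31.5 to 51.0 CPM in the 3 WT libraries. The other 6 genes had log2 differences of 0.23 to 0.56 (KO minus WT) with overlapping libraries. The 16 S-phase genes had differences of 0.18 to 0.47 (median 0.29, 0 called by edgeR). The summed level of 3 markers of cerebellar granule neuron precursors was 126, 234 and 143 CPM in KO and 32.5, 81.6 and 223 CPM in WT. Their part in the histone values was not tested. None of the 57 other histone genes was called.

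Hist1h4n could not be read alone. Its twin Hist1h4m, which the member rule leaves out, had 41, 136 and 153 counts in the WT RNA-seq libraries and 2873, 4031 and 2363 in KO. Hist1h4n therefore held 98.9, 97.0 and 97.6% of the counts of the pair in WT and 46.0, 45.3 and 43.9% in KO. The share was 52.8 percentage points lower in KO, far beyond the spread of 0.982 and 1.06 points (SD, n = 3). The groups did not overlap, and an exact two-sided permutation test gave p = 0.1, the smallest that 3 against 3 libraries allow. Summed over the pair, the level was 33.3, 32.5 and 52.3 CPM in WT and 36.1, 60.2 and 32.1 CPM in KO, that is 39.4 ± 11.2 against 42.8 ± 15.2 (exact permutation p = 0.7, two-sided, n = 3 and 3). The lower Hist1h4n count in KO RNA thus went with a higher Hist1h4m count, and the level of the pair overlapped between genotypes.

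The split of the pair was present in RPFs too. In fraction 5/6 of the standard preparation Hist1h4n held all counts of the pair in WT replicates 1 and 2, but these were only 3 and 1. It held 0 of 14 in WT replicate 3, the library with the low Fmr1 level, and 9.76 to 22.2% of 20 to 41 counts in KO. In low nuclease libraries, where more RPFs fell on the pair, it held 95.5 to 100% in the WT pellet and 8.93 to 17.3% in the KO pellet, and 96.3 to 98.2% in WT and 13.3 to 18.7% in KO fraction 5/6. In low nuclease RNA-seq it held 84.5 to 94.6% of 14 to 687 counts in WT and 40.9 to 75.0% of 8 to 582 counts in KO. In each of these readouts all KO libraries were below all WT libraries, apart from WT replicate 3 of fraction 5/6. In the standard pellet the pair had counts in only 1 WT library, 4 in all, of which Hist1h4n held 25.0%, and it held 0 to 14.3% of 7 to 19 counts in the KO libraries. All 6 peaks called on Hist1h4m lay between transcript positions 20 and 67, where its start codon begins at position 39, and none was called on Hist1h4n. They came from 5 KO libraries and from WT fraction 5/6 replicate 3. Windows of Hist1h4m that occur once span positions 7 to 65, around the differing base at position 36.

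**Figure D3:**
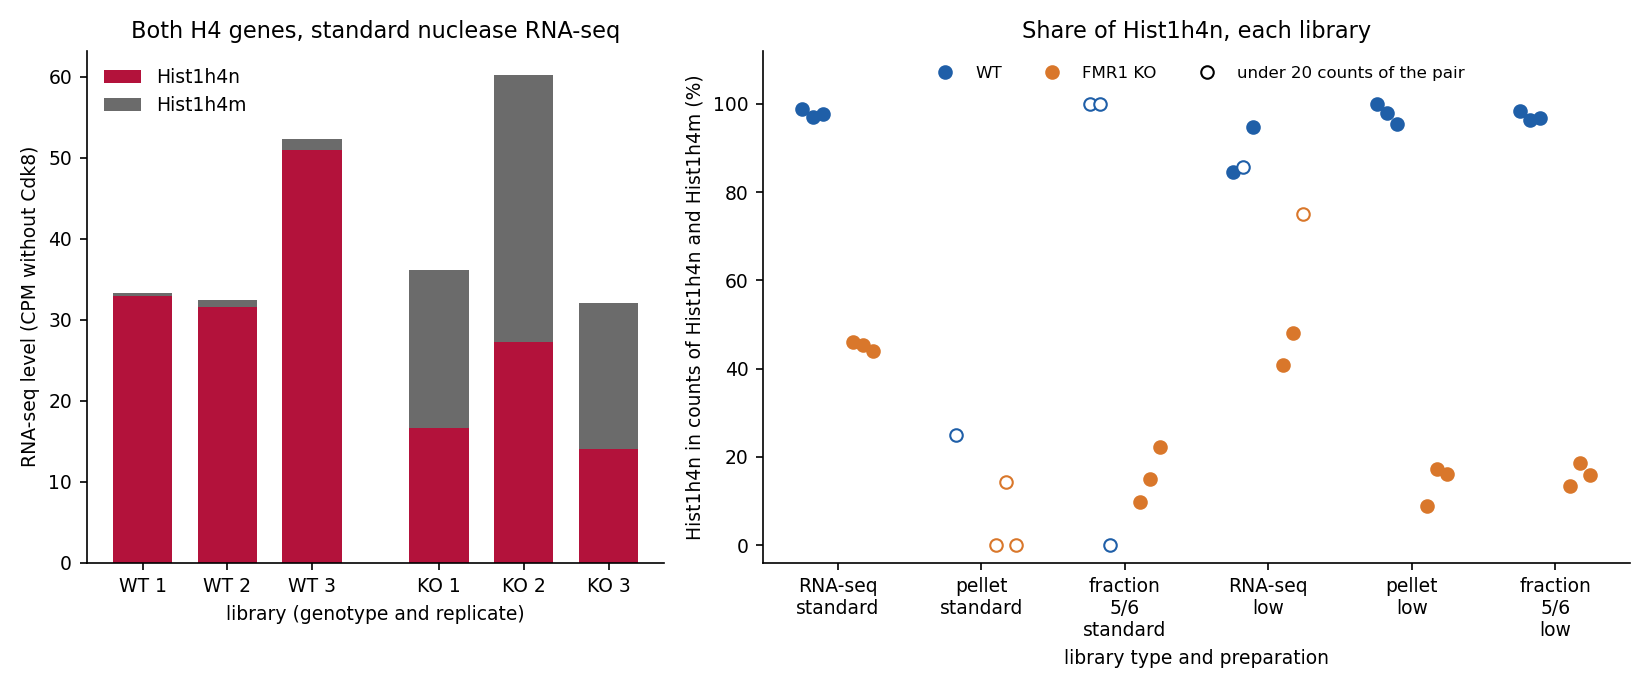
Left, stacked level of Hist1h4n and Hist1h4m (CPM without Cdk8) in each standard RNA-seq library. Right, percent of the counts of the pair assigned to Hist1h4n, 1 point per library with counts, by genotype, readout and preparation, with open points for libraries under 20 counts of the pair. WT libraries lie at 84.5% or more except in the standard pellet and in 1 standard fraction 5/6 library at 0%, and KO libraries lie at 75.0% or less.

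In the low nuclease preparation the RPF counts stood mainly on the 3 genes that have exon sequence of their own. Hist1h2an had 44, 44 and 50 counts in the WT and 14, 17 and 48 in the KO pellet, Hist1h2bp 19, 38 and 49 and 12, 15 and 39, and Hist1h4n 42, 47 and 42 and 5, 9 and 18. In fraction 5/6 Hist1h2an had 62 to 110 counts in WT and 93 to 126 in KO, Hist1h2bp 33 to 68 and 52 to 84, and Hist1h4n 56 to 92 and 32 to 62. Hist1h2ap had 0 to 2 counts per RPF library, and Hist1h2ao, Hist1h2bq and Hist1h2br 0 to 5.

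Its RNA-seq was uneven. Hist1h2an had 568, 12 and 843 counts in WT and 247, 12 and 4 in KO, and Hist1h4n had 147, 12 and 650 and 238, 13 and 6. In the libraries with so few, WT replicate 2 and KO replicates 2 and 3, up to 81.5% (WT) and 85.0% (KO) of all counts fell on 10 genes. Against this RNA-seq, 3 of the 7 genes could be tested. In WT, 1 of 3 was lower in the pellet (25.5% of all genes were called lower), namely Hist1h2an at -1.34 ± 0.42 (adjusted p = 0.0303, edgeR), with Hist1h4n at -0.59 ± 0.43 and Hist1h2bp at 1.06 ± 0.54. In KO, 1 of 3 was lower (12.9%), namely Hist1h4n at -2.16 ± 0.56 (adjusted p = 0.0290, edgeR), with Hist1h2an at -0.78 ± 0.59 and Hist1h2bp at 1.48 ± 0.91. As a sum of pooled counts, Hist1h4n and Hist1h4m stood at 72.8% of their RNA level in the KO pellet (exact binomial interval 62.1 to 85.0%). In the WT pellet they stood at 41.2% (34.1 to 49.5%). These sums were not tested, and the KO value of Hist1h4n alone depends on the split of the pair given above. Hist1h2an was not called in WT without RNA replicate 1 or 3 or pellet replicate 2 or 3 (adjusted p up to 0.104, edgeR), and Hist1h4n was not called in KO without RNA replicate 2 or any 1 pellet library (adjusted p up to 0.113). By library size without Cdk8 alone neither was called (adjusted p = 0.662 and 0.864, edgeR), nor was Hist1h4n with the replicate block (adjusted p = 0.0920, edgeR).

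In fraction 5/6 of the low nuclease preparation 0 of 3 genes were called by edgeR in WT (29.6% of all genes were called lower) and 0 of 3 in KO (17.1%). In each genotype 1 gene, Hist1h2bp, reached an unadjusted p under 0.05, at 1.27 ± 0.54 and 2.32 ± 0.84, and DESeq2 called it higher (adjusted p = 0.0188 and 0.0373). As a sum of pooled counts, Hist1h4n and Hist1h4m stood at 174.7% of their RNA level in KO fraction 5/6 (exact binomial interval 157.1 to 194.3%). In WT fraction 5/6 they stood at 65.4% (56.3 to 75.6%). Hist1h4n alone read -0.90 in KO with DESeq2 and 0.03 by library size without Cdk8 alone. With the RNA-seq of the standard preparation in place of the uneven one, Hist1h2an, Hist1h2bp and Hist1h4n were lower in all 4 comparisons. Hist1h2bp then read -1.37 in the WT pellet, -2.18 in the KO pellet, -1.06 in WT fraction 5/6 and -1.27 in KO fraction 5/6. The sign of Hist1h2bp thus depended on which RNA libraries were set against the RPFs.

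**Figure D4:**
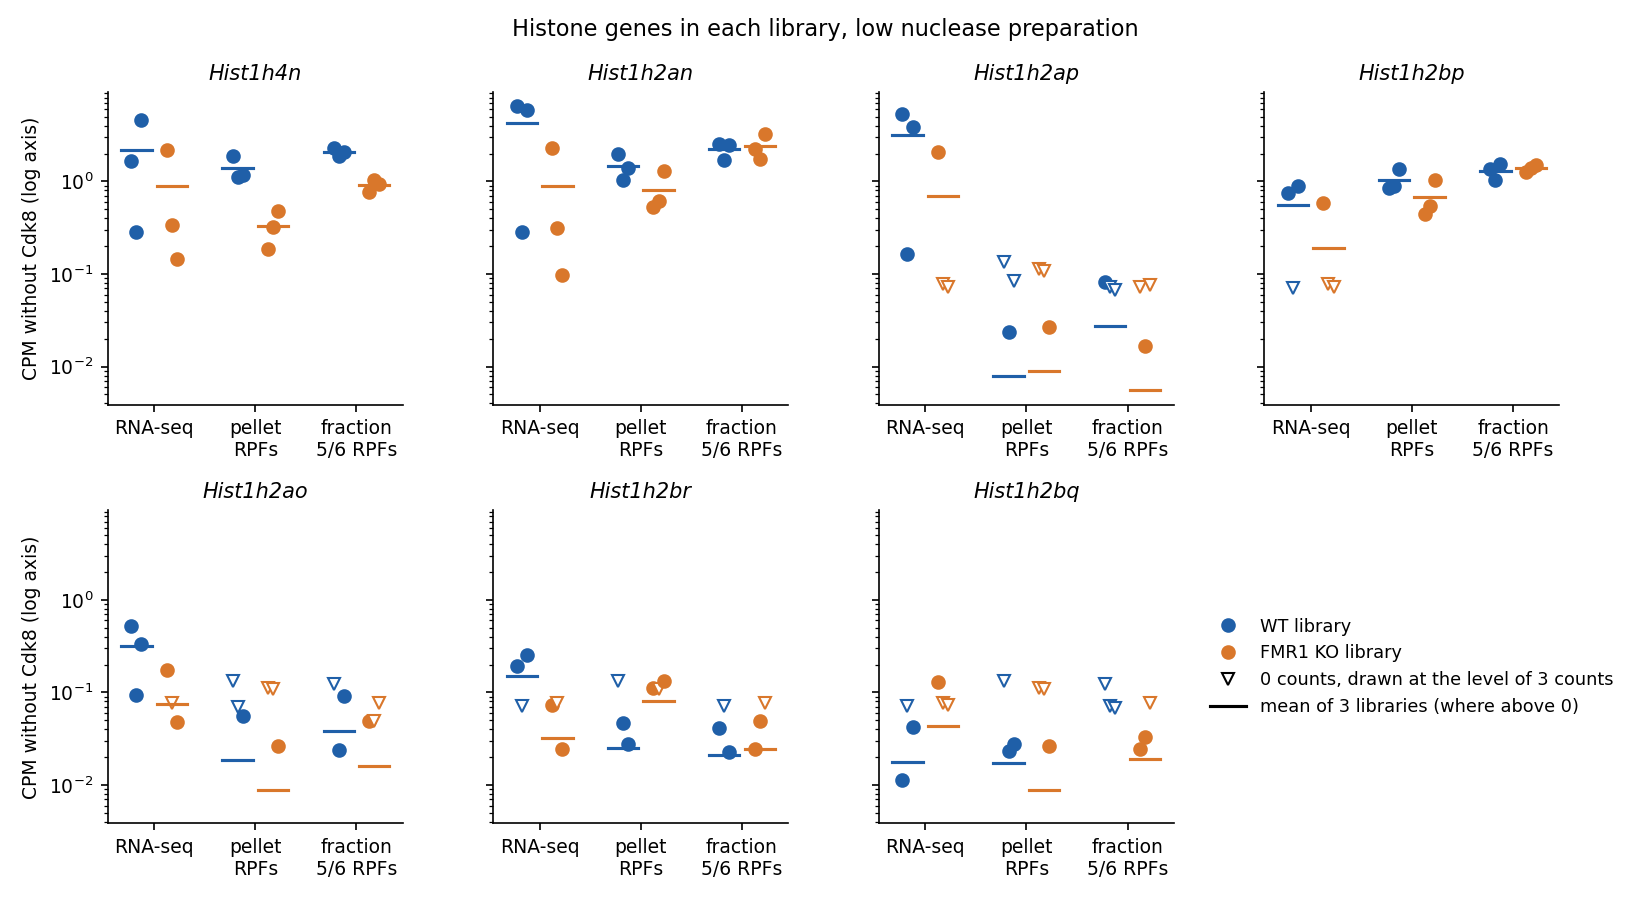
Level of each gene in every library of the low nuclease preparation, in CPM without Cdk8 on a log axis, with the same layout as for the standard preparation. RPF counts stand mainly on Hist1h2an, Hist1h2bp and Hist1h4n, and RNA-seq levels of a gene are spread widely between libraries of a group.

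Between low nuclease pellet and fraction 5/6, 0 of 3 genes were called by edgeR or DESeq2 in WT (23.0% of all genes were called), with 0 at an unadjusted p under 0.05 in the unpaired fit. With the replicate block Hist1h2an was at -0.54 ± 0.14 (adjusted p = 0.0550, edgeR), Hist1h4n at -0.51 ± 0.15 (0.0676) and Hist1h2bp at -0.20 ± 0.23 (0.541). In CPM all 3 genes were lower in the pellet in each same-numbered WT pair. In KO, 1 of 3 was lower in the pellet (20.0% of all genes were called in either direction), Hist1h4n at -1.24 ± 0.33 (adjusted p = 0.0478, edgeR). All 3 reached an unadjusted p under 0.05, Hist1h2an at -1.37 ± 0.42 (adjusted p = 0.0698, edgeR; 0.0184 in DESeq2, which called it) and Hist1h2bp at -0.82 ± 0.33 (adjusted p = 0.133, edgeR). The edgeR call of Hist1h4n was lost without any 1 of the replicates. Between the genotypes, 0 of 3 genes were called by edgeR in low nuclease pellet RPFs (0.0197%), 0 of 3 in fraction 5/6 (0.0445%), 0 of 5 in RNA-seq (0.00%) and 0 of 4 for the change of pellet RPFs against RNA-seq (0.0187%). Hist1h4n alone reached an unadjusted p under 0.05, being lower in KO by -1.89 ± 0.36 in the pellet (adjusted p = 0.739, edgeR) and -1.19 ± 0.20 in fraction 5/6 (adjusted p = 0.484) and at -1.58 ± 0.70 for the change against RNA-seq (adjusted p = 1.00). DESeq2 called it in the pellet (adjusted p = 0.00959) and in fraction 5/6 (adjusted p = 0.00198). For Hist1h4n all 3 KO libraries were below all 3 WT libraries in the pellet, and the pair's split described above applies to these counts. Summed with Hist1h4m, the pair was at 5.83, 5.50 and 5.95 CPM in KO fraction 5/6 and 2.34, 1.93 and 2.15 CPM in WT. All KO sums there were above all WT sums. In the pellet the sums were 2.09, 1.88 and 2.97 CPM in KO and 1.88, 1.13 and 1.23 CPM in WT. The low nuclease sums were not tested. In low nuclease RNA-seq, 0 of the 5 genes reached an unadjusted p under 0.05, and DESeq2 called 0.

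Lists of genes around the histone mRNAs, chosen for this work, are given beside the histones, and no test between lists was made. Of 14 factors of histone mRNA processing and decay, 8 were higher and 5 lower in the WT standard pellet than in RNA, with a median of 0.77. SLBP's gene Slbp, the stem-loop binding protein, was higher by 1.78 ± 0.11 (adjusted p = 1.10e-05, edgeR), the cleavage factor genes Cpsf2 and Cpsf3 by 2.25 ± 0.15 and 2.09 ± 0.12, and Upf1, a helicase of histone mRNA decay, by 1.82 ± 0.16. Lsm10 and Lsm11, components of the U7 particle that guides 3′ end cleavage, were lower by -1.34 ± 0.26 and -0.68 ± 0.11. Of 12 histone chaperones 6 were higher and 1 lower, with Nasp, a carrier of H3 and H4, at 2.58 ± 0.15 and Hira at -0.57 ± 0.14. Of 16 S-phase genes 11 were higher and 1 lower, with the ribonucleotide reductase gene Rrm1 at 2.61 ± 0.22 and the thymidine kinase gene Tk1 at -1.11 ± 0.35.

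The replacement histones, whose mRNAs are not tied to S phase and in most cases have poly(A) tails, were lower as well: 8 of 11 in the WT pellet, with 1 higher, H2afy (macroH2A, 1.33 ± 0.38), and a median of -1.59. H3f3a was at -5.76 ± 0.38 and H2afz, the gene of H2A.Z, at -2.83 ± 0.27. In KO 9 of 11 were lower and 1 higher. There 7 of 14 processing factors were higher and 5 lower, 5 of 12 chaperones higher and 1 lower, and 9 of 16 S-phase genes higher and 1 lower. Of all 16173 genes tested, 5027 were called higher and 5537 lower in the WT pellet. By library size without Cdk8 alone, an alternative chosen after the data were seen, 0 of 11 replacement histones were higher and 10 lower in WT, and the processing factors changed the sign of their median to -0.39, with 4 higher and 7 lower. The chaperones were then at -0.92 (3 higher, 7 lower) and the S-phase genes at 0.03 (3 higher, 5 lower), against -3.13 for the 57 other histone genes (0 higher, 54 lower). In KO the same scaling gave medians of -0.74 for the processing factors (4 higher, 8 lower), -1.11 for the chaperones (1 higher, 7 lower) and -0.24 for the S-phase genes (3 higher, 6 lower). The replacement histones were at -3.04 (0 higher, 10 lower) and the 57 other histone genes at -3.19 (0 higher, 56 lower). Most of all genes tested were called lower in WT under this scaling, and the share in KO is not given here, so these counts are a description. The order of the list medians, with both histone lists lowest, was the same under either scaling in WT. A change of scaling moves nearly all genes by about the same amount, so this order could hardly have changed and shows no robustness.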

How the data were processed

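Counts of 36 libraries and RPF peak calls were analysed. The authors made the counts, deposited as whole numbers per gene without normalization, with cutadapt 2.10 for trimming and Bowtie2 2.3.5 to discard reads of ribosomal and other non-coding RNA. STAR 2.7.8a placed the rest on GRCm38, Picard marked duplicates, SAMtools 1.19.2 dropped them, and featureCounts 2.2.0 made the gene totals. Versions come from the submitters' processing notes. Handling of multi-mapping reads, read length and RNA-seq library type are not given in the sources used here. Whether mRNAs without a poly(A) tail were selected against in RNA-seq could therefore not be checked. The authors called peaks of coverage per library on transcripts, and the deposited peak heights are coverage without scaling between libraries.

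Protein-coding genes (GENCODE M21; 16561 of 16614 rows) without Cdk8 were tested on the 2 groups compared with edgeR 4.0.16 (limma 3.58.1, R 4.3.3): filterByExpr, TMM, quasi-likelihood test, Benjamini-Hochberg adjustment over all genes tested, threshold 0.05. The interaction was fitted over 4 groups. No column of per-sample values was left unused, and 92 rows with an identifier but no gene name were kept by identifier. Groups came from the labels. Each preparation pooled 10 mouse brains per the study's methods, and p-values measure the spread between libraries of such preparations. CPM divide by library totals without Cdk8, and RPKM also by merged exon length. Sequences and coordinates were read from RefSeq's GRCm38 genome in Python 3.11.15 (numpy 2.4.6, pandas 2.3.3, scipy 1.17.1, matplotlib 3.10.9 for figures). The tests were tried on simulated counts first. Alternatives were library size alone, DESeq2 1.42.0, no filter, Cdk8 kept, all biotypes, a replicate block, other RNA-seq libraries and leaving out each library.

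Every member is named, and of the other lists those with the largest change in each direction or a central role were named after their values were seen. The members and lists were chosen with earlier results of these data known. Replicate numbers were taken as pairs only in the low nuclease WT pellet against fraction 5/6, where the deviations of same-numbered libraries correlated at 0.188, 0.119 and 0.210, all above 0.1. The labels name no shared batch.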

Additional observations from a re-analysis of the deposited data

How the results depend on the processing

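In the standard preparation the genes called in RPFs against RNA were lower under every alternative run. This says little beyond Hist1h2an. The other 6 genes passed the filter through RNA alone and could only come out lower, and the counts of calls rest mainly on them. In the pellet the counts ranged from 4 to 7 in WT and 5 to 7 in KO with 1 library left out, and in fraction 5/6 from 3 to 7 in WT and 4 to 5 in KO. When an RNA library was left out, fewer genes passed the filter. Hist1h2bp in WT fraction 5/6 was not called without fraction 5/6 replicate 1 or RNA replicate 3, and Hist1h2br there not without fraction 5/6 replicate 1. Against low nuclease RNA-seq the counts of called genes moved more: in the WT pellet (1 gene) library size alone gave 0, no filter 3, the standard RNA-seq 7, and leaving out a library 0 to 3. In WT fraction 5/6 (0 genes) DESeq2 gave 1 gene called higher, Hist1h2bp, no filter 3 lower, the standard RNA-seq 7 lower, and leaving out a library 0 to 4, of which 1 was higher. In the KO pellet (1 gene) library size alone gave 0, the standard RNA-seq 7, and leaving out a library 0 to 2, of which 1 was higher. In KO fraction 5/6 (0 genes) DESeq2 gave 1 called higher, again Hist1h2bp, no filter 1 lower, the standard RNA-seq 7 lower, and leaving out a library 0 to 1, which was higher without RNA replicate 1 and lower without RNA replicate 3. For the KO pellet against fraction 5/6 (1 gene) library size alone and DESeq2 gave 2, no filter 0, and leaving out a replicate 0 each time. Between the genotypes DESeq2 gave 1 gene in low nuclease pellet and 1 in fraction 5/6, and every other alternative 0. Apart from the filter and the number of libraries, the causes were not tested. Cdk8 kept and all biotypes moved no count by over 1.5 times. With TMM library sizes the summed level of the members became 35.6 CPM (WT) and 29.6 CPM (KO) in standard RNA-seq, 2.41 in the standard KO pellet, 3.41 in standard WT fraction 5/6, and 4.36 (WT) and 3.63 (KO) in low nuclease fraction 5/6.

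With the replicate number as a block, 4 of 7 genes were called in standard WT fraction 5/6 against RNA, 0 in the low nuclease KO pellet against RNA and 2 in the low nuclease KO pellet against fraction 5/6. The labels give no pairing beyond the number there, and the block moved no other count by over 1.5 times. In the low nuclease KO pellet against fraction 5/6 same-numbered libraries correlated at 0.361, 0.151 and 0.0657. As not all were above 0.1 they were not taken as pairs, although both fractions came from the same gradients. With the block Hist1h2an was at -1.43 ± 0.22 (adjusted p = 0.0215, edgeR) and Hist1h4n at -1.28 ± 0.29 (adjusted p = 0.0403, edgeR). In the low nuclease WT pellet against fraction 5/6, where the numbers were taken as pairs, 0 of 3 genes were called with and without the block.

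Depth limits the RPF values: 3 counts were the floor, and 6 of 7 genes had too few counts for a test within standard RPFs.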
